A study of Mus musculus with 8 samples.

Results

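The genes described here encode 8 receptor chains for growth factors of blood cells: Flt3, Kit, Csf1r, Csf2ra, Csf2rb, Csf2rb2, Csf3r and Il3ra. They were chosen by name, with earlier results of these data known, as genes with a probe set that names no other gene. Each of the 8 had a single such probe set, among 19938 genes measured in all. Their transcripts were compared between 2 sorted populations of the same 4 mice, the myeloid dendritic cells of bone marrow and the classical dendritic cells of spleen, with 1 array per mouse and tissue and 8 arrays in all. Every mouse was 8 weeks old and had the genotype CX3CR1-gfp/+, in which a green fluorescent protein gene is carried at 1 Cx3cr1 allele, so both groups share the reporter. Which surface markers the sort used, and the sex of the mice, could not be learned from the labels. Values are array intensities on a linear scale, levels are geometric means of 4 arrays, and fold changes are bone marrow over spleen. Intensities are not read counts, and the number of arrays limits the precision.

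Growth factor receptors tell blood cell precursors and their progeny to survive, divide and mature. Flt3, Kit and Csf1r are receptor tyrosine kinases of 1 family, which bind Flt3 ligand, stem cell factor, and Csf1 or Il34. Csf2ra and Il3ra are the ligand-specific alpha chains of the receptors for GM-CSF and interleukin 3. They signal through a shared beta chain, Csf2rb, and mice carry an additional beta chain, Csf2rb2, that serves interleukin 3. Csf3r, the receptor for G-CSF, is the main growth factor receptor of neutrophils. Classical dendritic cells depend on Flt3, monocytes and macrophages on Csf1r, and mast cells and early progenitors on Kit.

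The arrays of each group correlated with each other across genes with Pearson's r of at least 0.991, and arrays of different groups with r of at most 0.976, a description of the arrays since genes are not independent. Both populations carried transcripts that mark dendritic cells. H2-Ab1, a class II chain, stood at 14678 in spleen against 15354 in bone marrow, and Itgax, which encodes CD11c, at 8432 in spleen against 6409. Zbtb46, a transcription factor of classical dendritic cells, was lower in bone marrow, at 214, than in spleen, at 520.0 (log2 fold change -1.28 ± 0.11 SE, limma adjusted p = 3.3e-06). In sorted but bulk samples such as these, fewer cells of a type and less RNA per cell cannot be told apart.

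The 8 receptor genes went in opposite directions. Csf3r, Csf1r, Csf2ra and Il3ra were higher in bone marrow, Kit and Flt3 were lower, and the beta chain genes Csf2rb and Csf2rb2 did not pass the threshold, which was an adjusted p of 0.05 in limma over all genes. Thus 6 of 8 passed, where 18.5% of all genes did. The 4 that were higher compare with 9.26% of all genes and the 2 that were lower with 9.2%. The groups of 4 arrays did not overlap for the same 6 genes, against 20.6% of all genes. Of the 6, Kit, Flt3, Csf1r and Csf3r also differed by at least 2-fold, which 3.52% of all genes did. The median log2 fold change was 0.20 over the 8 receptor genes and -0.0071 over all genes. All genes include dim ones, whereas the 8 lay above the median of every array. With the dimmest 40% of genes left out, 1740 genes were higher and 1740 lower, a larger share of those that remained. Since the 8 were chosen with earlier results known, these counts are a description and not a test of enrichment.

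**Figure D1:**
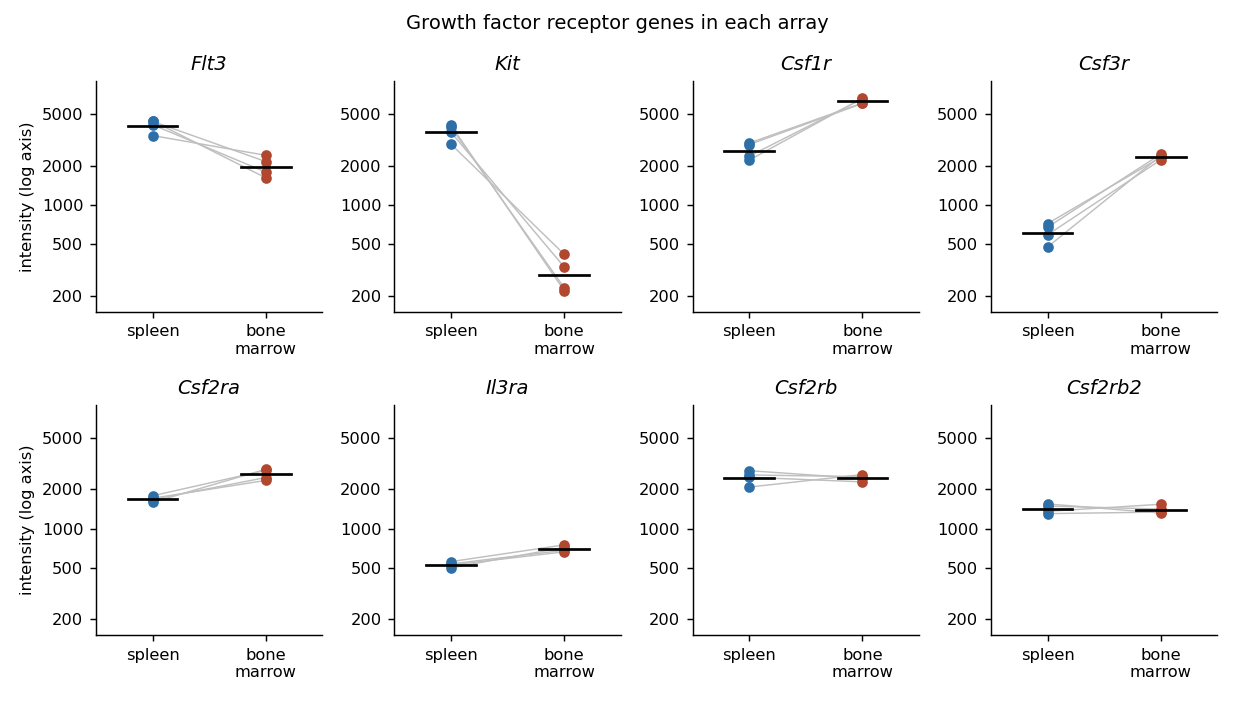
Intensity of each receptor gene (vertical log axis) in the 4 spleen arrays (blue) and the 4 bone marrow arrays (red), with grey lines joining the arrays of a mouse and black bars at the geometric means. Kit falls from between 2941 and 4116 in spleen to between 218 and 416 in bone marrow, whereas both beta chain genes overlap between the groups.

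Kit, the receptor for stem cell factor, showed the largest change among the 8. In spleen its intensity was 3979, 3634, 4116 and 2941 in mice 1 to 4, and in bone marrow it was 229.5, 332, 218 and 416. Every bone marrow array lay far below every spleen array, and mouse 4 had both the highest bone marrow and the lowest spleen value. The geometric mean was 3637 in spleen against 289 in bone marrow, a 12.6-fold difference (a log2 change of -3.66 ± 0.18 SE with 4 arrays per tissue, limma adjusted p = 2.2e-08). Within mice the log2 difference ran from -4.24 to -2.82. The bone marrow values lay above the array medians of 125 to 135. No detection call accompanies the intensities, so how much of a dim value is background is unknown.

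Flt3, the receptor whose ligand drives dendritic cell development, was also lower in bone marrow, by a smaller amount. Its spleen intensities were 4402, 4143, 4433 and 3421 in mice 1 to 4, and its bone marrow intensities were 2154, 1788, 1615 and 2407. The highest bone marrow array stayed below the lowest spleen array, and both of these came from mouse 4. The means were 4078 in spleen against 1967, a 2.07-fold difference (a log2 change of -1.05 ± 0.13 SE with 4 arrays per tissue, limma adjusted p = 5.6e-05). All 4 mice showed the direction, with log2 differences between -1.46 and -0.51.

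Csf1r, the macrophage colony-stimulating factor receptor and the third kinase of the group, went the other way. It stood at 6089.8, 6559.8, 6043 and 6639 in the bone marrow of mice 1 to 4 and at 2993, 2370.3, 2915 and 2211 in their spleens. The bone marrow arrays were close together, with an SD of 0.07 on the log2 scale against 0.22 in spleen, and none overlapped with spleen. The means were 6327 in bone marrow against 2600.1, a 2.43-fold difference (a log2 change of 1.28 ± 0.10 SE with 4 arrays per tissue, limma adjusted p = 1.5e-06). The spleen values also lay far above the array medians.

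The changes of the 3 kinase genes were set against each other by taking, in each array, the difference of their log2 intensities. Such a difference shows unequal change and does not compare the levels of the genes. The 6 pairs of receptor genes compared in this way share a Benjamini-Hochberg adjustment, and the smallest two-sided p that 4 arrays against 4 can give is 0.0286. The test permutes all 8 arrays and leaves the pairing by mouse aside. Within mice the smallest exact p is 0.125, so no pair could pass there. Kit fell by more than Flt3, with a difference of the changes (Flt3 minus Kit) of 2.60 ± 0.18 SE (exact permutation p = 0.0286, adjusted p = 0.0429). Flt3 against Csf1r gave -2.33 ± 0.13 SE and Kit against Csf1r gave -4.94 ± 0.19 SE, each with the same exact permutation p of 0.0286 and adjusted p of 0.0429. For each of these pairs the bone marrow and spleen arrays did not overlap. For the pairs with Csf1r this was bound to happen, because their genes moved in opposite directions without overlap. The p-values of those pairs therefore add nothing to the results of the single genes. Those pairs also share the adjustment. Over all 8 arrays, the adjusted p of Flt3 minus Kit was below 0.05 only because they are in it.

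**Figure D2:**
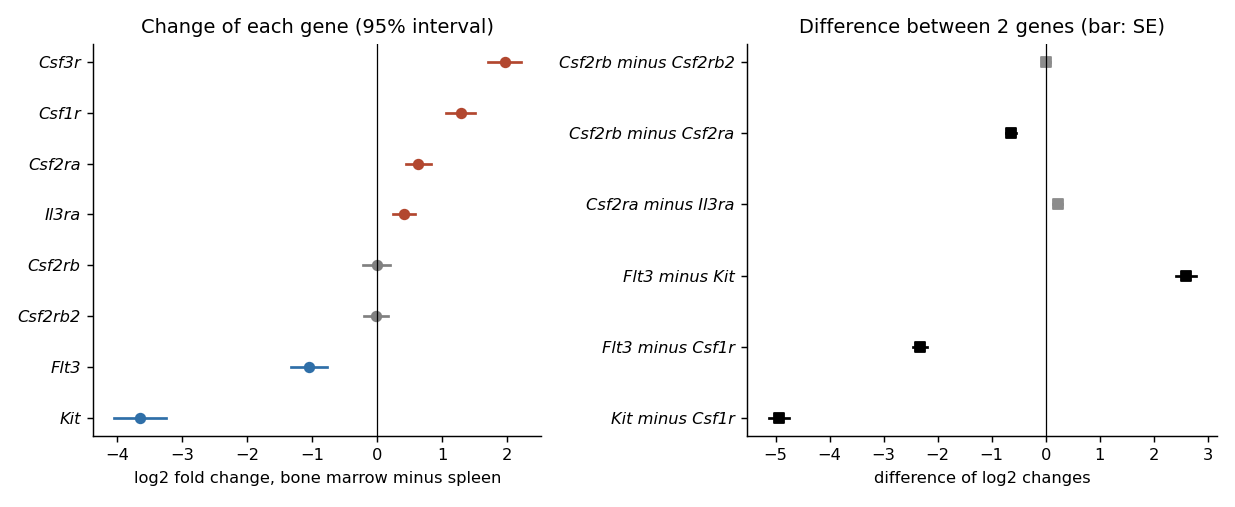
Left, log2 fold change of each receptor gene (bone marrow minus spleen) with limma's 95% interval, red for higher, blue for lower and grey for not past the threshold. Right, difference between the log2 changes of 2 receptor genes with its SE, black where the adjusted exact permutation p was below 0.05; Kit minus Csf1r at -4.94 is the largest and Csf2rb minus Csf2rb2 at 0.01 the smallest.

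The promoters of the genes that fell are shown because the members moved in opposite directions. They are the 250 bases before an annotated start from RefSeq (GRCm38.p6), written in the direction of transcription. Kit had 2 such stretches, and the first listed is shown. Capitals mark GAGGAA on either strand, the core bound by PU.1 and some related ETS factors. The Flt3 stretch is chr5:147400490-147400739 on the minus strand and the Kit stretch is chr5:75574737-75574986 on the plus strand.
Flt3: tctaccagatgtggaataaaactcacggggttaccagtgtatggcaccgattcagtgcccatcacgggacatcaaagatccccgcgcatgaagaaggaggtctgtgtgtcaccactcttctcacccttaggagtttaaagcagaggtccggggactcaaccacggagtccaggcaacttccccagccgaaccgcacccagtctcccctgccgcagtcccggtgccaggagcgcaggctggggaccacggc
Kit: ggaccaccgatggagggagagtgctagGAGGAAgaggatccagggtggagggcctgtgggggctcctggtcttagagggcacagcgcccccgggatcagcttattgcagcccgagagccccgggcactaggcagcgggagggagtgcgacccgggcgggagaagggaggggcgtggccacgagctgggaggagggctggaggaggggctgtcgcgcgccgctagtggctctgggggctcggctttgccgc

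Csf3r, the G-CSF receptor, was the gene with the largest rise. Its bone marrow intensities were 2325, 2394, 2459 and 2225 in mice 1 to 4, and its spleen intensities were 717, 473, 672 and 587. The bone marrow arrays again lay close together, and the lowest of them lay far above the highest spleen array. The means were 2349 in bone marrow against 605, a 3.88-fold difference (a log2 change of 1.96 ± 0.12 SE with 4 arrays per tissue, limma adjusted p = 9.8e-08). Within mice the log2 difference ran from 1.70 to 2.34.

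The alpha chain of the GM-CSF receptor, Csf2ra, was moderately higher in bone marrow. It stood at 2349, 2473, 2812 and 2864 in the bone marrow of mice 1 to 4 and at 1712, 1672, 1787 and 1591 in spleen. No spleen array reached the lowest bone marrow array. The difference was 1.55-fold (a log2 change of 0.63 ± 0.09 SE with 4 arrays per tissue, limma adjusted p = 0.00016). Il3ra, the alpha chain of the interleukin 3 receptor, showed the smallest change that passed. Its intensities were 679.6, 661, 715 and 748 in bone marrow and 534, 524, 498 and 556 in spleen, without overlap. The difference was 1.33-fold (0.41 ± 0.08 SE on the log2 scale, limma adjusted p = 0.0018), and each of the 4 mice had the higher value in bone marrow, as for Csf2ra, Csf1r and Csf3r.

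The beta chains that complete these receptors did not follow. Csf2rb, the shared chain of the GM-CSF, interleukin 3 and interleukin 5 receptors, stood at 2511, 2289, 2431 and 2607 in bone marrow and at 2588, 2482, 2791 and 2087 in spleen. The bone marrow range lay within the spleen range. The log2 fold change was -0.01 ± 0.10 SE (limma adjusted p = 0.98), with a 95% interval from -0.22 to 0.20. Csf2rb2, the interleukin 3 beta chain, stood at 1413, 1339.8, 1315 and 1538 in bone marrow and at 1489.8, 1303, 1547 and 1357 in spleen. These ranges overlapped as well, and the log2 fold change was -0.02 ± 0.09 SE (limma adjusted p = 0.93), with a 95% interval from -0.21 to 0.16. Changes as large as those of Csf2ra and Il3ra lie outside both intervals, and smaller ones lie within them. The 2 beta chain genes are close paralogs that lie next to each other in the RefSeq gene order, and whether the probes of each also bind the transcript of the other was not tested.

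In these arrays the alpha and beta chain genes of the GM-CSF receptor changed by unequal amounts. Csf2rb minus Csf2ra differed between the tissues by -0.64 ± 0.09 SE on the log2 scale (exact permutation p = 0.0286, adjusted p = 0.0429). This test too left the pairing by mouse aside, and within mice no exact p can fall below 0.125. As for Flt3 minus Kit, the adjusted p was below 0.05 only with the pairs of Csf1r in the adjustment. The per-array difference ran from -0.21 to 0.10 in bone marrow and from 0.39 to 0.64 in spleen, so the arrays did not overlap. The changes of the alpha chains Csf2ra and Il3ra differed by 0.22 ± 0.08 SE, which did not pass (exact permutation p = 0.0571, adjusted p = 0.0686), although it did without spleen replicate 3 (a difference of 0.28, adjusted exact permutation p = 0.0343). The changes of the beta chains Csf2rb and Csf2rb2 differed by 0.01 ± 0.07 SE (exact permutation p = 0.914, adjusted p = 0.914).

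The promoters of Csf3r and Csf2ra, genes that rose, are given in the same way. The Csf3r stretch is chr4:126024409-126024658 on the plus strand and the Csf2ra stretch is chr19:61228419-61228668 on the minus strand.
Csf3r: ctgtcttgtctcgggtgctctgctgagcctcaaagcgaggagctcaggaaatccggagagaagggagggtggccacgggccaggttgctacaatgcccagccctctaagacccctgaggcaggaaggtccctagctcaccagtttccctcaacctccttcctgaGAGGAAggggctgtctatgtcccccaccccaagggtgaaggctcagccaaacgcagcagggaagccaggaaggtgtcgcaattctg
Csf2ra: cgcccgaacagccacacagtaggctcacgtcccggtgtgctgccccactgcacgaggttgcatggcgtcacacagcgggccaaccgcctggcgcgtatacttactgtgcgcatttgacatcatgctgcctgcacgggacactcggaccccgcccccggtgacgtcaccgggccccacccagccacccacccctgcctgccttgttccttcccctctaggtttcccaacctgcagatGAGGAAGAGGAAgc

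Promoter stretches from RefSeq were used for 6 of the 8 receptor genes (Flt3, Kit, Csf2ra, Csf2rb2, Csf3r and Il3ra). For Kit only 1 of its 2 stretches was searched. Entries on chromosome 18, where Csf1r lies, were left out for the receptor genes but not for the background of all stretches. Csf2rb had no usable entry. Both strands of the 6 stretches were searched for 4 cores: GAGGAA for PU.1-type ETS factors, TGTGGT for RUNX factors, AGATAA for GATA factors and TTGCNNAA for C/EBP factors. No match of one core overlapped a match of another. GAGGAA was found in 4 of the 6 stretches and in 23.4% of 32536 promoter stretches of the same length. It began 223 bases before the start of Kit, 86 before that of Csf3r, 167 before that of Csf2rb2, and 14 and 8 before that of Csf2ra, where the 2 copies abut in the printed sequence. TTGCNNAA was found once, 134 bases before the start of Il3ra, and in 9.57% of all stretches. TGTGGT (14% of all stretches) and AGATAA (9.97%) were in none of the 6. Genes that rose, that fell and that did not pass the threshold each held GAGGAA, and a match describes letters and not a bound site.

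The other genes of these pathways were taken from 6 lists, and their counts stand beside the 9.26% of all genes that were higher and the 9.2% that were lower. Of 8 ligand genes, Flt3l, Kitl, Csf1, Il34, Csf2, Csf3, Il3 and Il5, 1 passed, Kitl, which encodes stem cell factor. Kitl stood at 23.4 in spleen against 29.6 in bone marrow (a log2 change of 0.34 ± 0.10 SE with 4 arrays per tissue, limma adjusted p = 0.025). Both levels lie below the lower quartile of the arrays, which was between 50.5 and 54.8, and the call ended in 6 of 16 alternatives: dropping bone marrow replicate 1 or 2, any of spleen replicates 2 to 4, or the last 2 of these at once (adjusted p from 0.054 to 0.22). Csf1 had a log2 fold change of 0.25 ± 0.10 SE (adjusted p = 0.11 in limma, and 0.041 without spleen replicate 1). Flt3l, the Flt3 ligand, stood at 437 in spleen against 394 in bone marrow (-0.15 ± 0.09 SE, limma adjusted p = 0.38). The log2 fold changes of Csf2, Csf3, Il3, Il5 and Il34 lay between -0.12 and 0.07.

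Related receptors moved in both directions. Of 11 listed 9 were measured, and 4 were higher and 1 lower in bone marrow, with a median log2 fold change of 0.21. Lifr, the receptor of leukaemia inhibitory factor, stood at 327 in spleen against 998 in bone marrow (a log2 change of 1.61 ± 0.12 SE with 4 arrays per tissue, limma adjusted p = 8.9e-07). Flt1, a receptor of vascular endothelial growth factor, was 1.88-fold higher (0.91 ± 0.11 SE, limma adjusted p = 3.7e-05). Epor, the erythropoietin receptor, was 1.39-fold higher (limma adjusted p = 0.038), but did not pass when bone marrow replicate 2 or 3, spleen replicate 1, 2 or 3, or spleen replicates 3 and 4 together were left out (adjusted p from 0.072 to 0.10). Il7r, the interleukin 7 receptor alpha chain, was 1.54-fold lower (-0.63 ± 0.10 SE, limma adjusted p = 0.00074). Il5ra, the alpha chain that pairs with Csf2rb to bind interleukin 5, had a log2 fold change of -0.28 ± 0.10 SE (limma adjusted p = 0.077). The count of higher members was 2 without bone marrow replicate 2 and 2 without spleen replicates 3 and 4, and the count of lower members was 2 without bone marrow replicate 4.

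The signalling genes that receive input from these receptors held a few large changes. Of 33 listed kinases, adaptors and STAT genes 26 were measured, and 9 were higher and 2 lower, with a median log2 fold change of 0.23. Jak2, the kinase attached to the beta chain of the GM-CSF and interleukin 3 receptors, was the gene with the largest change. It stood at 2219.7 in spleen against 759.5 in bone marrow (a log2 change of -1.55 ± 0.10 SE with 4 arrays per tissue, limma adjusted p = 2.0e-07). Stat5b, a transcription factor activated by Jak2, was higher by 0.43 ± 0.08 SE, whereas its relative Stat5a stood at 717 in spleen against 684 (limma adjusted p = 0.77). The adaptors Dok2 and Gab2 and the kinase Syk were 1.76-fold, 1.52-fold and 1.51-fold higher. Pik3cg, a catalytic subunit of PI 3-kinase, was 1.25-fold lower, but did not pass with bone marrow replicate 3 left out, nor with spleen replicates 3 and 4 left out (limma adjusted p = 0.052 and 0.057). The count of 9 higher genes was 5 when bone marrow replicate 2, spleen replicate 4, or spleen replicates 3 and 4 together were dropped. The count of 2 lower genes was 1 when bone marrow replicate 3 or both spleen replicates 3 and 4 were dropped.

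Among 18 negative regulators 4 were higher and 2 lower, with a median log2 fold change of 0.08. Socs2, a suppressor of cytokine signalling that STAT5 induces, stood at 345 in spleen against 78.8 in bone marrow (a log2 change of -2.13 ± 0.16 SE with 4 arrays per tissue, limma adjusted p = 9.8e-07). Its relatives Socs1 and Socs3, and Cish, had log2 fold changes of -0.09, 0.14 and 0.21 and did not pass. The phosphatases Ptpn1 and Ptprj were higher by 0.68 and 0.56 on the log2 scale, and Spred1, an inhibitor of the Ras pathway, was 1.31-fold higher but did not pass when bone marrow replicate 2 or 3 or spleen replicate 1 was left out (limma adjusted p from 0.051 to 0.061). Sla, an adaptor that restrains receptor signalling, was 1.23-fold lower. The Sla call ended with the mouse as a replicate block (limma adjusted p = 0.054), without bone marrow replicate 3 (0.056) and without spleen replicates 3 and 4 (0.064), which left 1 lower member, and without bone marrow replicate 2 there were 3.

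Of 23 listed STAT5 and survival targets 22 were measured, and 3 were higher and 3 lower, with a median log2 fold change of 0.04. The lower genes had the larger changes. Id2, an inhibitor of helix-loop-helix factors needed for dendritic cell development, stood at 1242 in spleen against 369 in bone marrow (a log2 change of -1.75 ± 0.14 SE with 4 arrays per tissue, limma adjusted p = 1.7e-06). Ccnd1, which encodes cyclin D1, stood at 4504 in spleen against 1659.5 (-1.44 ± 0.12 SE, limma adjusted p = 2.6e-06), and Socs2 was described above. Egr2, a transcription factor of macrophage differentiation, was 1.77-fold higher but did not pass with spleen replicates 3 and 4 both left out (limma adjusted p = 0.052). The survival genes Bcl2 and Mcl1 were 1.37-fold and 1.25-fold higher, and Mcl1 did not pass when bone marrow replicate 3 or spleen replicate 1 or 2 was dropped (limma adjusted p from 0.056 to 0.063). Socs1, Socs2, Socs3 and Cish stand in both this list and that of the negative regulators. Egr2 is also counted among the transcription factors below. Other genes, such as Il7r and Epor, recur in the marker lists, so the counts overlap.

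Of 22 transcription factors with a known role in the expression of these receptors, 12 were higher and 3 lower, with a median log2 fold change of 0.35. Spi1, which encodes PU.1, a factor needed for Csf1r and Csf2ra expression, stood at 2968 in spleen against 2753 in bone marrow (a log2 change of -0.11 ± 0.09 SE with 4 arrays per tissue, limma adjusted p = 0.55). The C/EBP genes Cebpa, Cebpb, Cebpd and Cebpe, factors of granulocyte and monocyte development, were all higher, by 0.85, 0.49, 0.63 and 0.45 on the log2 scale. Mitf, a factor of mast cells, melanocytes and osteoclasts, was higher by 1.64 ± 0.13 SE (limma adjusted p = 1.2e-06), Zeb2 by 1.54 ± 0.08 SE (3.2e-08) and Ets2 by 1.22 ± 0.15 SE (4.9e-05). The RUNX genes went opposite ways, with Runx3 at 1837 in spleen against 764 in bone marrow (-1.27 ± 0.09 SE, limma adjusted p = 7.5e-07) and Runx1 higher by 0.44 ± 0.08 SE. Meis1 and Ikzf1 were 1.53-fold and 1.35-fold lower. Gata2, a partner of Kit expression in mast cells and progenitors, had a log2 fold change of 0.26 ± 0.08 SE (limma adjusted p = 0.034), which did not pass with the mouse as a replicate block (adjusted p = 0.086) or with any single array dropped other than bone marrow replicate 2 or spleen replicate 4, or with spleen replicates 3 and 4 both dropped.

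**Figure D3:**
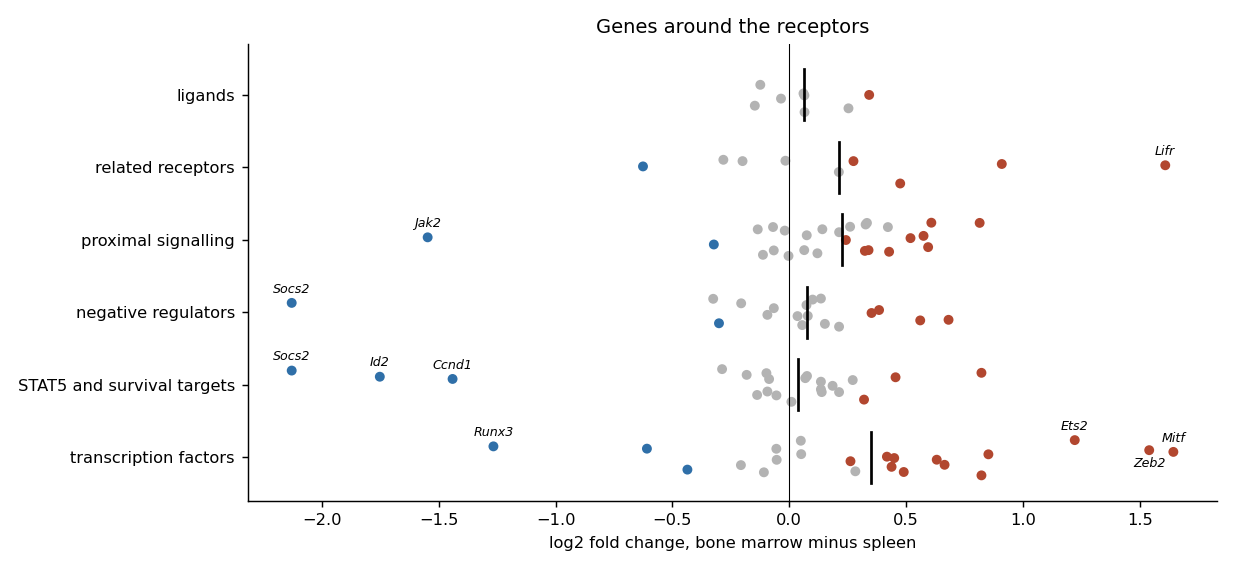
Log2 fold change (bone marrow minus spleen) of each measured gene in 6 lists of ligands, related receptors, signalling genes, inhibitors, targets and transcription factors; red genes are higher, blue genes lower and grey genes did not pass, with the list median as a black bar. Socs2, Id2, Jak2, Ccnd1 and Runx3 lie farthest to the left, and Mitf, Lifr, Zeb2 and Ets2 farthest to the right.

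Markers of cell types that use these receptors moved with them in part, and the counts for each cell type are to be read against the 9.26% of all genes that were higher and the 9.2% that were lower. All 13 neutrophil markers were higher in bone marrow, where Csf3r was higher, and their summed intensity ran from 21767 to 29883 there and from 1658 to 1944 in spleen. Ngp and S100a8, genes of neutrophil granules and cytoplasm, led with log2 fold changes of 5.08 and 4.66. All 10 measured monocyte and macrophage markers were higher, where Csf1r and Csf2ra were higher, with sums from 28382 to 35836 in bone marrow and from 6559 to 7311 in spleen, led by F13a1 (3.96) and Mrc1 (3.77). Their part in the higher Csf3r, Csf1r and Csf2ra was not tested. The lowest values of the lists were 35.6 for neutrophils and 41.0 for monocytes and macrophages, both in spleen. These lay below the lower quartile of the arrays, which was between 50.5 and 54.8. Without a detection call, whether such values exceed background is unknown.

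Il3ra and the beta chain genes are also expressed by basophils and mast cells, and Kit by mast cells. Of 11 markers of these cells 6 were higher and none lower in bone marrow, where 9.26% of all genes were higher. They were led by the basophil genes Mcpt8 (log2 fold change 2.32) and Prss34 (1.77), with sums from 919.6 to 1842 there and from 680.2 to 726 in spleen. Of 5 eosinophil markers 2 were higher, Prg2 (2.75) and Epx (1.53), with sums from 1247 to 2324 in bone marrow and from 440.0 to 516 in spleen. The part of these cells in the Il3ra result was not tested. The 6 higher basophil and mast cell markers also included genes that both cell types express, with log2 fold changes from 0.26 to 0.61. The mast cell protease genes Mcpt4, Tpsb2 and Cma1 and the mast cell receptor gene Mrgprb2 did not pass, with log2 fold changes of 0.07, -0.0016, 0.09 and 0.04. The part of mast cells in the Kit result was not tested. Of 8 measured stem and progenitor markers 2 were higher, Myb (0.42) and Cd48 (0.38), and 2 lower, Procr (-1.35) and Meis1 (-0.61), with sums from 4626 to 5156 in bone marrow and from 4027 to 4465 in spleen. Most of these sums came from Cd48 alone, at 4059 in bone marrow and 3123 in spleen. Cd34, a defining progenitor marker, stood at 122.0 in spleen against 120.3. Of 5 measured erythroid markers 3 were higher and 1 lower, with Car1 (2.08) and Rhag (1.24) higher and Tfrc (-1.52) lower, and sums from 840.5 to 1257 in bone marrow and from 749 to 855 in spleen.

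Of 12 classical dendritic markers none was higher and 5 were lower in bone marrow, where Flt3 was lower and 9.2% of all genes were lower. They were led by Xcr1 (-3.49) and Esam (-2.35), with sums from 45580 to 48978 in bone marrow and from 48987 to 52211 in spleen. The other 7 did not pass, with log2 fold changes from -0.31 to 0.17, so the list did not fall as a whole. Of 6 measured plasmacytoid dendritic markers, another Flt3-dependent type, 1 was higher, Bst2 (0.78), and 2 lower, Ccr9 (-1.45) and Siglech (-0.34), with sums from 3462 to 4593 in bone marrow and from 2835 to 3315 in spleen. The Siglech call ended in 6 of the 16 alternatives (limma adjusted p from 0.065 to 0.29). Of 8 measured early B cell markers 4 were higher, led by Vpreb1 (1.21) and Rag1 (0.79), and 3 lower, led by Il7r (-0.63) and Cd79a (-0.50), with sums from 1042 to 1330.2 in bone marrow and from 1116 to 1263 in spleen. Of 7 measured T, NK and innate lymphoid markers 3 were lower, Cd3g, Cd3e (-0.33) and Il7r, of which the Cd3e call ended in 6 of the 16 alternatives (limma adjusted p from 0.055 to 0.12), with sums from 575 to 707 in bone marrow and from 798 to 944 in spleen. The part of these cell types in the lower Kit and Flt3 was not tested.

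**Figure D4:**
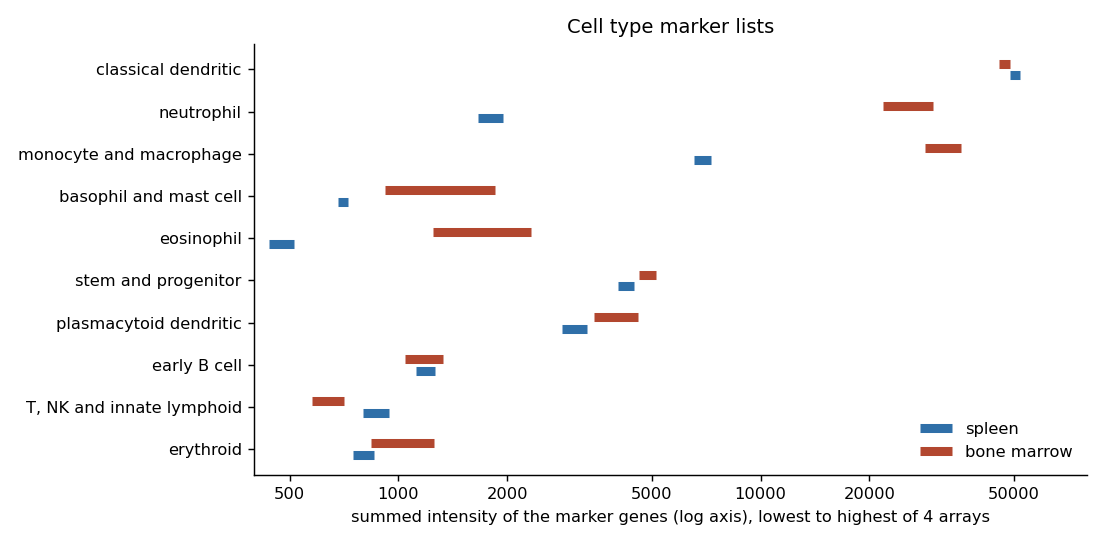
Summed intensity of the measured marker genes of each cell type (horizontal log axis), drawn as a bar from the lowest to the highest of 4 arrays, blue for spleen and red for bone marrow. The neutrophil and the monocyte and macrophage sums are far apart between the tissues, while the classical dendritic sums lie next to each other. Each sum is weighted to its brightest genes, such as H2-Ab1 in the classical dendritic list and Cd48 in the stem and progenitor list.

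The genes whose profile over the 8 arrays lay nearest to each receptor gene were found among 16880 protein-coding genes, by the Euclidean distance between log2 values centred on each gene's mean. Nearest to Kit were Spint1 (distance 0.56), Dnase1l3 (0.60) and Ffar2 (0.74), which were 12.0-fold, 14.9-fold and 14.8-fold lower in bone marrow. Nearest to Flt3 were Jaml (0.29), Sall2 (0.29) and Tob1 (0.31). Nearest to Csf1r were Tbc1d2b (0.24), Plod3 (0.24) and Lgals3bp (0.26), and nearest to Csf3r were Selenop (0.34), Fcgr2b (0.35) and Atf3 (0.38). Csf2ra lay nearest to Pik3ap1 (0.15), Frmd4a (0.16) and Srd5a3 (0.17), and Il3ra to Tmem202 (0.14), Msra (0.15) and Rassf1 (0.15). Csf2rb lay nearest to Mtor (0.05), Abcb8 (0.10) and Cabin1 (0.11), and Csf2rb2 to Sertad2 (0.11), Defb4 (0.12) and Irf9 (0.12). Tmem202 (42.6 in bone marrow and 32.6 in spleen) and Defb4 (18.1 and 17.7) were dim, below the lower quartile of every array. Among the receptor genes themselves the closest profiles were those of the beta chains Csf2rb and Csf2rb2 (0.25), followed by the alpha chains Csf2ra and Il3ra (0.41). The distance depends on the size of the change between tissues, so genes without a change lie close together. Sertad2, Defb4 and Irf9 each lay nearer to Csf2rb2 than Csf2rb did.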

How the data were processed

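Affymetrix mogene 1.0 ST arrays were hybridised with biotinylated cDNA made from 100 pg to 2 ng of total RNA, per the labels' protocols. The authors deposited 1 linear intensity per probe set and array, computed in Affymetrix Expression Console (version 1.4, per the submitters' processing notes). How background, scaling and summarization were handled there is not stated; array medians were alike.

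Of 35556 probe sets, 21789 named exactly 1 gene (platform annotation of 2016), 1621 several, and 12146 none. The brightest probe set per gene gave 19938 genes. Log2 intensities were fitted with limma 3.58.1 in R 4.3.3 (lmFit, eBayes, no filter), with Benjamini-Hochberg adjustment over all genes, after the script was tested on simulated data. Differences between 2 genes were tested by two-sided exact permutation over arrays. The p-values measure the spread among samples of 4 mice. Replicate numbers pair the tissues of a mouse, as the description labels show. Deviations of paired arrays correlated across genes at 0.10, -0.09, -0.18 and -0.05 for mice 1 to 4. No source used here states which test the authors ran or that it was paired, so the mouse was left out of the model and tried as a replicate block among the alternatives.

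The receptor genes and the gene lists were chosen with earlier results of these data known. Named were all 8 receptor genes, all ligands, up to 3 genes per direction of each other pathway list and up to 2 of each marker list with the largest change past the threshold, and the 3 nearest profiles of each receptor gene. Other genes were named after their values were seen. Genes without a probe set of their own were not analysed here.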

Additional observations from a re-analysis of the deposited data

Results flagged for a closer look

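In 238 groups of 4 arrays (119 genes named in the text in each tissue), 1 array lay apart from the other 3 by more than Dixon's 95% critical value in 7 groups, where chance gives about 1 in 20. None was a group of a receptor gene. Egr2 stood at 400.5 in spleen replicate 1, against 317 to 325 in the others. Epor stood at 125.5 in spleen replicate 4, against 101 to 103. Meis1 stood at 263 in bone marrow replicate 4, against 216 to 221. Myb stood at 132 in spleen replicate 1, against 151 to 155. Runx1 stood at 793 in spleen replicate 4, against 890 to 906. Spi1 stood at 2744 in spleen replicate 4, against 3027 to 3057. S100a8 stood at 117 in spleen replicate 4, against 191 to 202.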

How the results depend on the processing

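The 16 alternatives were quantile normalization, median centring, leaving out the dimmest 40% of genes, averaging probe sets, an intensity trend, array weights, the mouse as a replicate block, leaving out each array, and leaving out spleen replicates 3 and 4 together. Under all 16 the 4 higher and 2 lower receptor genes kept their direction and their side of the threshold. Their log2 fold changes ranged from -3.83 to -3.52 for Kit, -1.15 to -0.96 for Flt3, 1.20 to 1.35 for Csf1r, 1.84 to 2.04 for Csf3r, 0.59 to 0.68 for Csf2ra and 0.38 to 0.44 for Il3ra. Their highest limma adjusted p was 0.013, for Il3ra. Csf2rb ranged from -0.09 to 0.05 and Csf2rb2 from -0.07 to 0.02, with adjusted p of at least 0.62. With the replicate block 4 receptor genes were higher and 2 lower, and the calls of 6 named genes ended: Akt1 (limma adjusted p = 0.065), Crlf2 (0.060), Gata2 (0.086), Ptpn11 (0.059), Sla (0.054) and Tyrobp (0.094). The counts of higher genes were then 6 in place of 9 for signalling, 3 in place of 4 for related receptors and 11 in place of 12 for transcription factors. Under quantile normalization and median centring the median of all genes was 0.0028 and 0.0042, so no scaling moved it by over 0.1. With any 1 array left out, 4 of the 6 differences between receptor genes passed as before (adjusted exact permutation p from 0.0343 to 0.0429). The arrays of these 4 did not overlap between the tissues, and leaving 1 out cannot make them overlap, so this was no further check. Csf2ra minus Il3ra ranged from 0.17 to 0.28 and passed in 1 of the 8 cases, and Csf2rb minus Csf2rb2 passed in none. Within mice the smallest exact p is 0.125, so no pair could pass. Of 87 genes named anywhere in the text that had a call, the calls of 14 ended under at least 1 alternative. These were Akt1 (7 alternatives), Crlf2 (4), Ptpn11 (8) and Tyrobp (7), and 10 whose values stand beside them above. The filter on dim genes removed 18 of the named genes, Kitl among them.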

Other observations

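In the RefSeq gene order Kit lies between Pdgfra and Kdr, genes of related receptor kinases. Neither neighbour passed the threshold: Pdgfra had an intensity of 78.9 in spleen against 78.0 in bone marrow, and Kdr 150.2 against 130.8 (limma adjusted p = 0.95 and 0.52), though Kdr did without bone marrow replicate 4 (limma adjusted p = 0.011). Pdgfrb, which is adjacent to Csf1r, had a log2 fold change of 0.21 ± 0.07 SE (limma adjusted p = 0.068). Next to Flt3 lies Pan3, at 856 in spleen against 803 in bone marrow (limma adjusted p = 0.61), and beyond it Flt1, which was higher in bone marrow while Flt3 was lower. Beside the beta chain genes lies Ncf4, which encodes a subunit of the phagocyte oxidase, at 1189 in spleen against 1183 in bone marrow (limma adjusted p = 0.98).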
